A study of Homo sapiens with 2 samples.

Results

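The interleukin 1 genes described here are the cytokines IL1A, IL1B, IL18 and IL33, the receptor antagonist IL1RN, the receptors IL1R1, IL1R2, IL1RAP and IL1RL1, and the adaptor MYD88. These 10 of 19775 genes were taken by name, and every probe set that the platform annotation gives to 1 of them alone was kept, 22 of 41091 such probe sets. Gene expression was measured in PC3CR cells, a cabazitaxel-resistant subline, and in the parental PC3 cells, a human cell line of castration-resistant prostate cancer. Cabazitaxel (CBZ) is a taxane that stabilises microtubules. PC3CR cells had been passaged in medium with CBZ for 18 months and were examined after 3 months without it, PC3 cells carry no CBZ treatment in the labels, and both were kept in RPMI-1640 with fetal bovine serum. Whether PC3CR is 1 clone or a mixed population is not given in the sources used here. Each cell line gave 1 array of total RNA, 2 arrays in all, and the authors deposited log2 values made with the robust multichip average (RMA). With 1 array per cell line no value has an SD and no difference has a test, and fewer cells that make an RNA cannot be told apart from less of it per cell.

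The arrays were alike over all genes, with a Pearson correlation across genes of 0.942 and a median difference, PC3CR minus PC3 on the log2 scale, of -0.04. Each gene is given by 1 probe set, the brightest on average. A log2 difference of 1 equals 2-fold, which the methods took as their threshold. The lower quartile of genes lay at a log2 value of 4.10 on the PC3CR array and 4.22 on the PC3 array. Values below these lie near the floor of the array, so that a difference with one side there is limited in size. The epithelial keratins KRT8 and KRT18 differed by 0.07 and 0.67, and EPCAM, an epithelial adhesion protein, by -2.49, with log2 values of 8.57 in PC3CR and 11.07 in PC3. KLK3, which encodes prostate-specific antigen, was at 8.08 in PC3CR and 8.04 in PC3, a difference of 0.04 in log2 value. Its dimmer probe sets, at 4.25 and 4.58 in PC3CR and 4.21 and 5.10 in PC3, differed by 0.04 and -0.53.

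Interleukin 1 is an alarm signal of inflammation. The agonists IL1A and IL1B bind the receptor IL1R1, which then recruits the shared chain IL1RAP. The paired receptor tails bind MYD88, and kinases of the IRAK family pass the signal through TRAF6 and the kinase TAK1 to the transcription factor NF-kappaB. The system holds several brakes. IL1RN occupies IL1R1 without recruiting IL1RAP, IL1R2 is a decoy that binds the agonists without a signalling tail, and SIGIRR dampens signals from the receptor family. IL33 uses IL1RL1, also called ST2, together with IL1RAP. IL18 has receptor chains of its own and shares MYD88.

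Both agonists were lower in PC3CR cells, and the signalling receptor for them was higher. Of the 10 genes, 2 were higher in PC3CR by 2-fold or more (IL1R1 and IL1RAP), 3 were lower by 2-fold or more (IL1A, IL1B and IL1RL1), and 5 lay within 2-fold. Over all 19775 genes, 9.84% were higher by that much and 6.72% lower. Of the 5 cytokine and antagonist genes, 2 were lower by that much and 3 were not, and the median difference was -0.79. Of the 5 receptor and adaptor genes, 2 were higher by that much, 1 lower and 2 within 2-fold, with a median of 0.34. By probe set, 3 of 22 were higher by 2-fold or more and 6 lower by 2-fold or more, against 8.94% and 5.89% of all probe sets with 1 gene symbol. Of the 10 genes, 7 reached the gene median of an array in at least 1 cell line. The other 3 were IL1RN, IL1R2 and IL33.

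**Figure D1:**
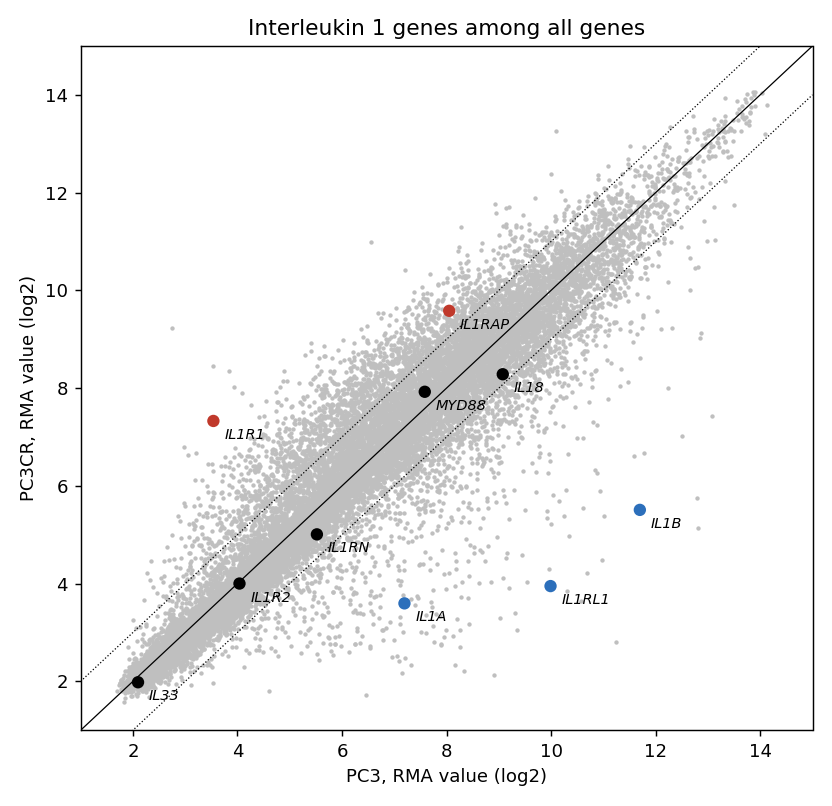
RMA values (log2) of 19775 genes on the PC3CR array (vertical axis) and the PC3 array (horizontal axis), each gene a grey point and each cell line 1 array. Red marks interleukin 1 genes higher in PC3CR by 2-fold or more, blue those lower by 2-fold or more and black those within 2-fold; the solid line is equality and dotted lines mark 2-fold. IL1B (5.51 in PC3CR, 11.70 in PC3) and IL1RL1 (3.95 in PC3CR, 9.99 in PC3) lie far below the lines and IL1R1 (7.33 in PC3CR, 3.54 in PC3) far above.

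IL1B, the secreted agonist, had the largest difference of the 10 genes. Its log2 value was 5.51 in PC3CR and 11.70 in PC3, a difference of -6.19 or 73.0-fold lower in PC3CR. Only 9 of 19775 genes had a lower difference. The second probe set of IL1B was at 4.68 in PC3CR and 11.10 in PC3, a difference of -6.43, so both probe sets gave nearly the same size. The value of IL1B in PC3CR stayed above the lower quartile of genes on both probe sets.

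IL1A, the agonist that is also active as an uncleaved precursor, was lower on 1 of its 2 probe sets. The brighter one had a log2 value of 3.60 in PC3CR, under that array's lower quartile, and 7.19 in PC3, a difference of -3.60 or 12.1-fold lower. The dimmer one was at 3.63 in PC3CR and 3.33 in PC3, a difference of 0.30. On that probe set both cell lines lay below the lower quartile of genes. Averaged over both, IL1A differed by -1.65. The lower level of IL1A therefore rests on 1 probe set, whereas that of IL1B stands on both.

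IL18 and IL33, the other agonist cytokines, lay within 2-fold. IL18, which drives interferon gamma production in lymphocytes, had a log2 value of 8.28 in PC3CR and 9.07 in PC3, a difference of -0.79 on its single probe set, the member nearest to 2-fold among those within it. IL33, a nuclear alarmin, was at 1.98 in PC3CR and 2.10 in PC3, near the floor of both arrays. The antagonist IL1RN had 5 probe sets, and none passed 2-fold. The brightest had a log2 value of 5.01 in PC3CR and 5.52 in PC3, a difference of -0.51, and the 5 differences ran between -0.61 and -0.10. The difference of IL1B was thus 5.68 lower on the log2 scale than that of its antagonist.

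**Figure D2:**
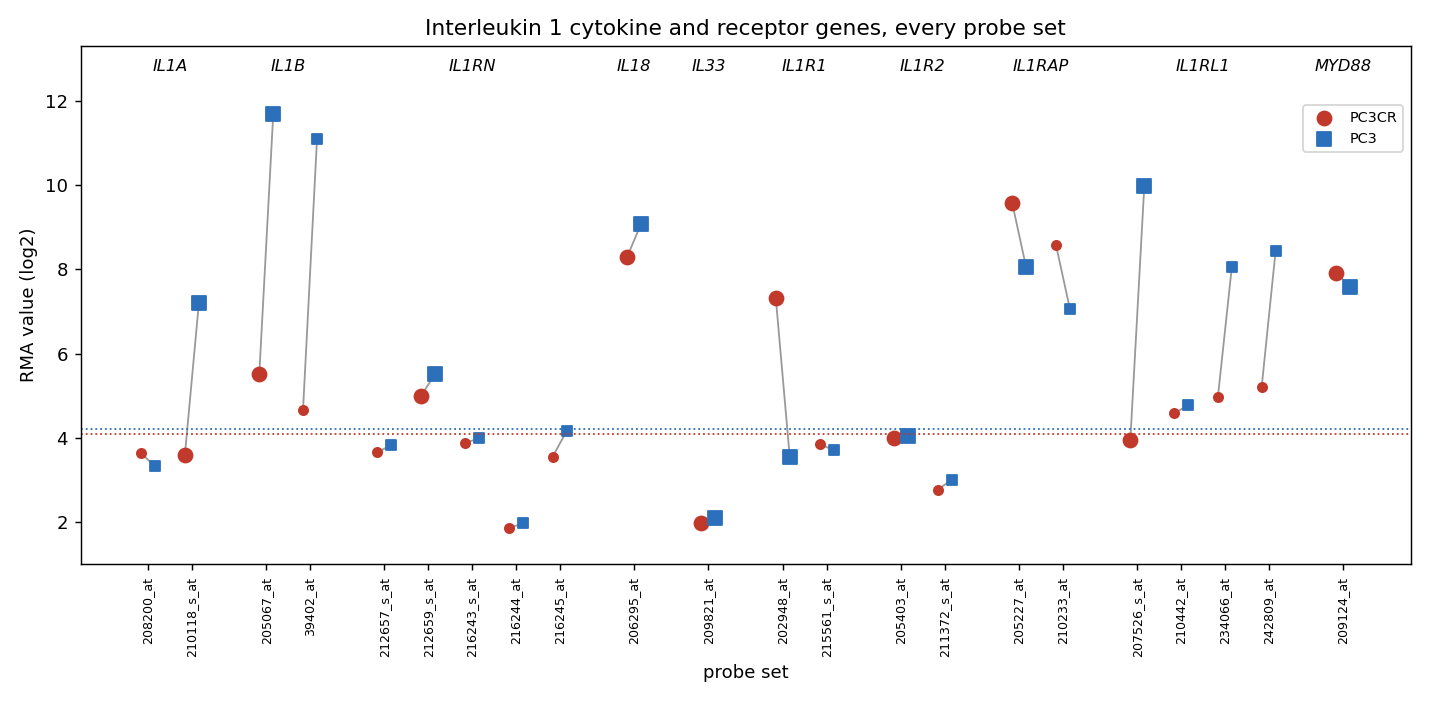
RMA values (log2, vertical axis) of all 22 probe sets of the 10 genes (horizontal axis), with PC3CR as red circles and PC3 as blue squares, 1 array each. Large symbols mark the probe set that stands for its gene, and dotted lines mark the lower quartile of genes on each array (4.10 in PC3CR, 4.22 in PC3). Both probe sets of IL1B and 3 of 4 of IL1RL1 drop in PC3CR, both of IL1RAP lie higher, and IL1A and IL1R1 each have 1 probe set that moves and 1 near the floor.

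Among the receptors, IL1R1 and its partner chain were higher in PC3CR cells. IL1R1 had a log2 value of 7.33 in PC3CR and 3.54 in PC3, a difference of 3.79 or 13.8-fold higher, and 7 of 19775 genes had a higher difference. Its PC3 value lay below the lower quartile of genes. The second probe set of IL1R1 was at 3.85 in PC3CR and 3.71 in PC3, a difference of 0.14, and as the mean of both IL1R1 differed by 1.96. IL1RAP, the chain that IL1R1 and IL1RL1 share, had a log2 value of 9.58 in PC3CR and 8.05 in PC3, a difference of 1.53 or 2.89-fold higher. Its second probe set, at 8.59 in PC3CR and 7.06 in PC3, differed by 1.52. IL1RAP was therefore measured well above the floor on both arrays, and its probe sets differed by nearly the same amount. The decoy IL1R2 differed by -0.04, with a PC3 value of 4.04, under the lower quartile in both cell lines, and its second probe set differed by -0.23. MYD88, the adaptor, was at 7.92 in PC3CR and 7.58 in PC3, a difference of 0.34 and within 2-fold.

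IL1RL1, the receptor for IL33, went the other way. Its log2 value was 3.95 in PC3CR and 9.99 in PC3, a difference of -6.04 or 65.8-fold lower, and 11 of 19775 genes had a lower difference. The PC3CR value of this probe set lay below the lower quartile of genes. The next brightest probe sets of IL1RL1 differed by less, -3.24 and -3.10. They were at 5.20 and 4.97 in PC3CR and at 8.44 and 8.07 in PC3. The dimmest was at 4.58 in PC3CR and 4.78 in PC3, a difference of -0.19. Of the 4 probe sets 3 were thus lower by 2-fold or more, and as their mean IL1RL1 differed by -3.14. The gene is known to make a membrane receptor and a shorter secreted form, and which of these each probe set reads was not examined.

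The stretches just before the start sites of the 5 genes past 2-fold are shown so that the 3 lower in PC3CR can be read beside the 2 that were higher. They are the 250 bases before the RefSeq start on GRCh38.p14, of which 9 of the 10 genes had at least 1 window. IL1A had 2 and IL1R1 had 4, and for each the first is shown, while both are shown for IL1RL1. Capitals mark matches, on either strand, to 3 short motifs, the TATA box TATAAA, the AP-1 site TGANTCA and the C/EBP site TTGCNNAA. The kappaB consensus was searched too. The matches in the windows shown do not overlap each other.
IL1B, chr2:112836780-112837029, minus strand: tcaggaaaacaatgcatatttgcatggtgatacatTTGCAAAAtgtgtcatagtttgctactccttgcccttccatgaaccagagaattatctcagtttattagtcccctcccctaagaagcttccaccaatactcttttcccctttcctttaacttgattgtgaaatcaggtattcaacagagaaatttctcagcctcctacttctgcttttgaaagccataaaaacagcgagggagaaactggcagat
IL1A, chr2:112784494-112784743, minus strand: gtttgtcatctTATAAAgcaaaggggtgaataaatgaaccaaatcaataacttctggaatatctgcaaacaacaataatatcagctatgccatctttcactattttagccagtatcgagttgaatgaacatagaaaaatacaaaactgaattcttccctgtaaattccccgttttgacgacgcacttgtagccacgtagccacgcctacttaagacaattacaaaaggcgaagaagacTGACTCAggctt
IL1RL1 outer start, chr2:102311313-102311562, plus strand: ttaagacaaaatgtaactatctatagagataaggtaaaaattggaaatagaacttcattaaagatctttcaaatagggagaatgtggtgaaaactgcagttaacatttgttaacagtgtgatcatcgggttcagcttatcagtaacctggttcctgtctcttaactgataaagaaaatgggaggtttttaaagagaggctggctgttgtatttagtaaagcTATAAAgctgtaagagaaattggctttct
IL1RL1 inner start, chr2:102337007-102337256, plus strand: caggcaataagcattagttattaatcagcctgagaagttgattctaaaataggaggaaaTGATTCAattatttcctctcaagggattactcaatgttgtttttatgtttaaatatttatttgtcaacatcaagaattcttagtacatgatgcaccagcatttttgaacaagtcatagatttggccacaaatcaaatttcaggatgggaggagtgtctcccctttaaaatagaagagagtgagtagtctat
IL1R1, chr2:102104354-102104603, plus strand: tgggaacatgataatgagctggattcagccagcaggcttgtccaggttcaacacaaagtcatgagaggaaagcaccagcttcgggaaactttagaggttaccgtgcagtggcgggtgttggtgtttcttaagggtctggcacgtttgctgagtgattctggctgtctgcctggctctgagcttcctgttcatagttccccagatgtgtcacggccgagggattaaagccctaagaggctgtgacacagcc
IL1RAP, chr3:190513835-190514084, plus strand: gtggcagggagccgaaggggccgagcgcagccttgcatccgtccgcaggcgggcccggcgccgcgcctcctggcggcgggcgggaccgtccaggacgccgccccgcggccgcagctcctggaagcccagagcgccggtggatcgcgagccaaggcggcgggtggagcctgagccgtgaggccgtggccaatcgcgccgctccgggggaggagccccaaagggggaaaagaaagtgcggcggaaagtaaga

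IL1B had 1 match, to the C/EBP site, from base -215 to base -208. IL1A had a match to the TATA box far from the start, from base -239 to base -234, and an AP-1 site from base -12 to base -6. The outer start of IL1RL1 had a TATA box from base -29 to base -24 before the start, and the inner one an AP-1 site. The windows shown for IL1R1 and IL1RAP had none. Of the windows not shown, the second of IL1A held 2 AP-1 sites and the third of IL1R1 held 2 TATA boxes on the other strand. The kappaB consensus was found in none of the windows shown. Over 35116 windows of the same length, the TATA box was found in 10.7%, the AP-1 site in 6.57%, the C/EBP site in 9.05% and the kappaB consensus in 5.21%. These are matches of letters and not measured binding. Only exact matches were marked, so a gene without a marked TATA box may still hold a near match. The windows also differed in base composition. Those of the 3 genes lower in PC3CR were poor in G and C, at 40.0% for IL1B, 37.6% and 42.0% for IL1A and 33.6% and 33.2% for IL1RL1, below the lower quartile of all windows, 46.4%. The window of IL1RAP held 74.8% G and C and 33 CG pairs, above the upper quartile of 68.0%. The 4 windows of IL1R1, the gene with the highest difference of the 10, held 52.4%, 50.0%, 39.6% and 76.8%, of which 3 lay below the median of all windows, 58.0%. The 2 genes higher in PC3CR thus did not share a composition, and IL33, near the floor on both arrays, had windows of 37.6% and 42.4%.

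Most of these genes lie in 2 groups on chromosome 2, and in neither group did all measured genes pass 2-fold in 1 direction. In the receptor group 6 genes were measured, in the order IL1R2, IL1R1, IL1RL2, IL1RL1, IL18R1 and IL18RAP. IL1R1 was 13.8-fold higher and IL1RL1 65.8-fold lower, only IL1RL2 lies between them among the measured genes, and it differed by -0.28. Both folds have a side below the lower quartile of genes, and averaged over probe sets the log2 differences were 1.96 for IL1R1 and -3.14 for IL1RL1. IL18R1 and IL18RAP, the chains of the IL18 receptor, differed by -0.35 and -0.51. In the ligand group 9 genes were measured, from IL1A and IL1B at one end to IL1RN at the other. IL1A and IL1B were lower by 2-fold or more, and the 7 others, IL37, the interleukin 36 genes IL36G, IL36A, IL36B and IL36RN, IL1F10 and IL1RN, lay between -0.54 and 0.00.

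**Figure D3:**
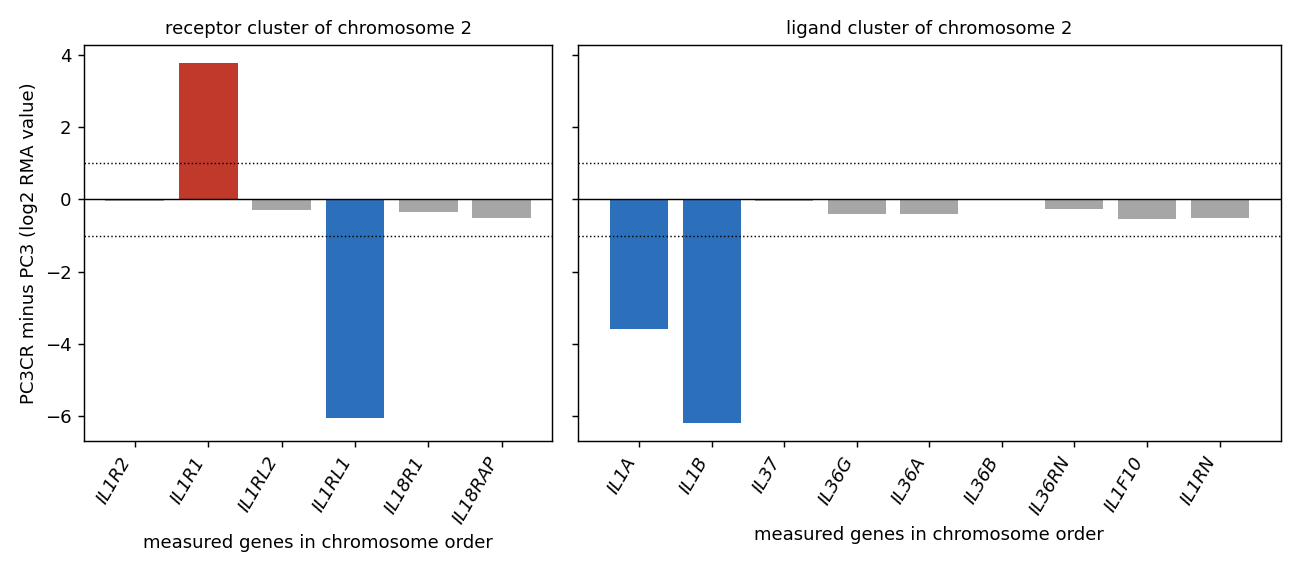
Difference between PC3CR and PC3 (log2 RMA value, vertical axis) for the measured genes of the receptor group (left, 6 genes) and the ligand group (right, 9 genes) of chromosome 2, in chromosome order and not to distance. Red bars are higher in PC3CR by 2-fold or more, blue lower by 2-fold or more and grey within 2-fold, and dotted lines mark 2-fold. Bars of IL1R1 (3.79) and IL1RL1 (-6.04) point in opposite directions with IL1RL2 (-0.28) between them.

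Of the other receptor family genes, SIGIRR, the inhibitory member, was lower in PC3CR on both of its probe sets. It had log2 values of 5.34 and 3.26 in PC3CR and of 8.70 and 7.31 in PC3, differences of -3.36 and -4.05, and the dimmer PC3CR value lay below the lower quartile of genes. The 5 other genes of this list lay within 2-fold, and the list had a median of -0.38. None of 7 further ligands and soluble inhibitors passed 2-fold, and their median was -0.27. Those furthest from 0 were IL1F10 at -0.54 and IL36G at -0.40.

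The steps between the receptor and TAK1 were mixed. Of 15 measured genes, 3 were higher by 2-fold or more, 2 lower by 2-fold or more and 10 within 2-fold. Of all genes, 9.84% were higher by that much and 6.72% lower. The list had a median of -0.09, beside -0.04 over all genes. The median was 0.03 with the mean of probe sets and 0.22 with identifiers ending in plain _at alone, which lack the suffixes of probes shared by several transcripts. IRAK1BP1, which binds IRAK1, had a log2 value of 5.85 in PC3CR and 3.55 in PC3, a difference of 2.30. PELI2, a ubiquitin ligase of the Pellino family, was at 6.38 in PC3CR and 4.15 in PC3, a difference of 2.22 that was 1.08 averaged over its probe sets. ECSIT, which binds TRAF6, differed by -2.20. IRAK3, the inhibitory IRAK, was at 4.86 in PC3CR and 3.18 in PC3. It differed by 1.69, or by 0.80 and within 2-fold as the mean of its 3 probe sets. TOLLIP, which binds the receptor and dampens it, was the other lower gene at -1.10, is named after its value was seen, and came within 2-fold at -0.95 as that mean. The PC3 values of IRAK1BP1, PELI2 and IRAK3 lay below the lower quartile of genes. Among the 11 genes of the list that reached the gene median of an array, 1 was higher and 2 lower by 2-fold or more. The 4 genes of the core path given next lay within 2-fold. IRAK1 was at 10.32 in PC3CR and 10.76 in PC3, IRAK2 at 8.71 in PC3CR and 9.25 in PC3, TRAF6 at 6.15 in PC3CR and 6.24 in PC3, and MAP3K7, which encodes TAK1, at 8.31 in PC3CR and 8.45 in PC3. These 4 were also named after their values were seen.

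Of 18 genes that process or release interleukin 1 cytokines, 1 (5.56%) was higher by 2-fold or more and 1 (5.56%) lower. The shares over all genes were 9.84% and 6.72%, and the median of the list was 0.01. CASP4, an inflammatory caspase, had a log2 value of 4.91 in PC3CR and 8.37 in PC3, a difference of -3.47, and its second probe set differed by -2.02. CAPN2, a calpain subunit of the protease family that cleaves the IL1A precursor, was at 12.25 in PC3CR and 11.11 in PC3, a difference of 1.14. CASP1, the caspase that matures IL1B and IL18 and the only gene of this list named after its value was seen, differed by -0.82 on its brightest probe set and by between -1.42 and -0.49 over its 5. Of 12 genes of NF-kappaB subunits, inhibitors and kinases, 1 (8.33%) was lower by 2-fold or more and none was higher by as much. This was NFKBIZ, an inhibitor-like cofactor of NF-kappaB that interleukin 1 is known to induce, at 7.10 in PC3CR and 9.86 in PC3, a difference of -2.76. After quantile normalization 1 gene of this list was also higher by 2-fold or more.

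Genes that interleukin 1 is known to induce were lower in PC3CR in larger number than they were higher. Of 30 listed, 25 were measured. Of these, 12 were lower by 2-fold or more, 2 higher by 2-fold or more and 11 within 2-fold, with a median of -0.90 against -0.04 over all genes. The share that was lower was 48.0%, against 6.72% of all genes, and the share that was higher 8.0%, against 9.84%. The list was chosen with earlier results of these data known, so its shares are a description and not a test. PTGS2, the inducible cyclooxygenase, had a log2 value of 2.33 in PC3CR and 7.32 in PC3, a difference of -4.99. LCN2, the iron-binding protein lipocalin 2, was at 6.60 in PC3CR and 11.59 in PC3, also -4.99. MMP1, a collagenase, differed by -3.81 and CXCL1, a neutrophil chemokine, by -3.64. The PC3CR values of PTGS2 and MMP1 lay below the lower quartile of genes. The 2 that were higher by 2-fold or more, CXCL5 (10.80 in PC3CR, 9.29 in PC3) and CCL2 (6.10 in PC3CR, 4.92 in PC3), are both chemokines and were named after their values were seen. As the mean of probe sets 14 were lower by 2-fold or more, and with identifiers ending in plain _at alone 10 of 16, with a median of -2.17. Other cytokines also induce many of these genes, so the list does not belong to interleukin 1 alone.

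**Figure D4:**
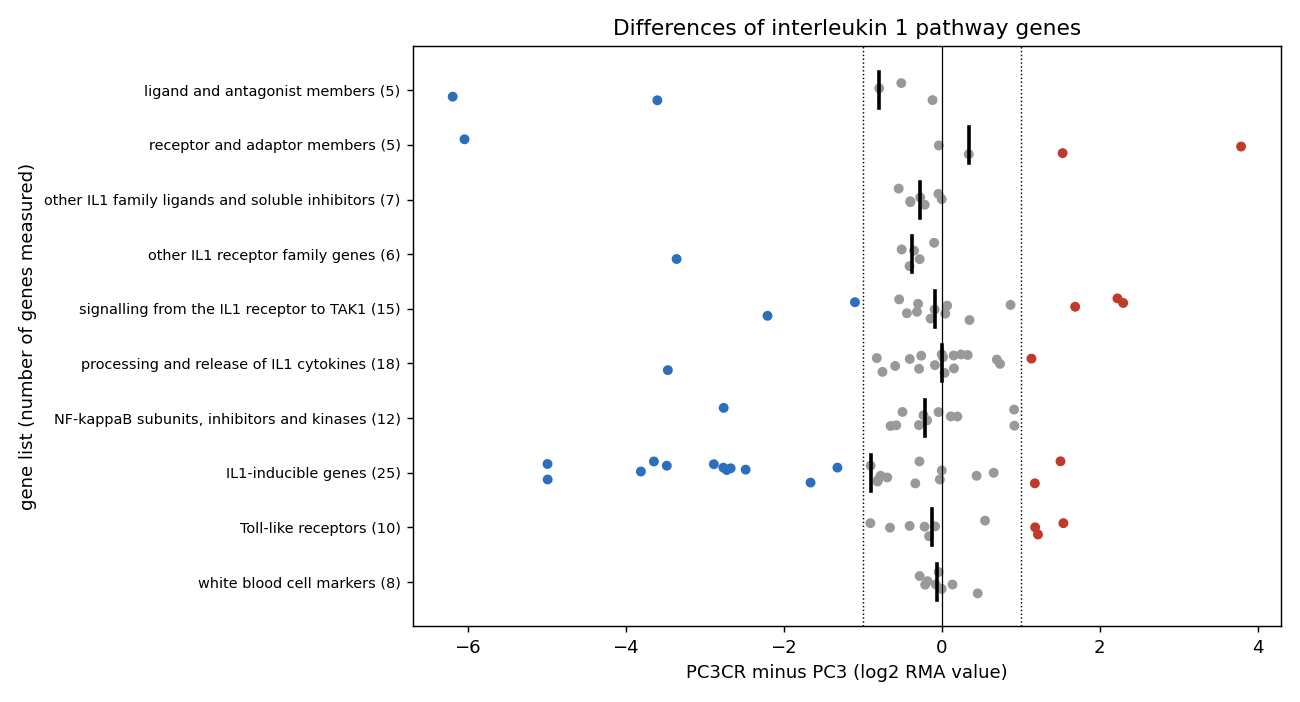
PC3CR minus PC3 (log2 RMA values, horizontal axis) by list (rows, how many genes were measured in brackets), each point a gene. Colours are red for higher in PC3CR by 2-fold or more, blue for lower by as much and grey for the rest, a black bar is the median of its list, and vertical scatter within a row has no meaning. The bar of the 25 interleukin 1-inducible genes lies at -0.90, and none of the 8 white blood cell markers passes 2-fold.

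For each of the 5 genes past 2-fold, the genes with the most similar pair of values on both arrays were looked up, by Euclidean distance over 2 arrays. IL1RL1 lay nearest to NOX5 (distance 0.06, difference -6.03) and EFNB2 (0.33, -6.45). IL1RAP lay nearest to FUCA1 (0.03, with log2 values of 9.55 in PC3CR and 8.05 in PC3) and MSRB3 (0.06, 1.45), and IL1A to HNMT (0.15, -3.63) and GCNA (0.18, -3.39). IL1B and IL1R1 had no close neighbour. The nearest to IL1B were MAL2 (0.69, -5.65) and ABI3BP (0.85, -5.04), and those to IL1R1 were GPR27 (0.69, 2.82) and PCSK5 (0.74, 3.47). With 2 arrays such a distance says only that the values were close.

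White blood cells are a main source of IL1B in the body, and their markers were low in both cell lines. Of 8 markers measured, none passed 2-fold, the median difference was -0.06, and log2 values ran between 2.95 and 5.58 in PC3CR and between 3.03 and 5.74 in PC3. Furthest from 0 were CD14, a monocyte marker, at 0.46 (5.11 in PC3CR, 4.66 in PC3) and CD3E, a T cell marker, at -0.28. PTPRC, the common leukocyte antigen, was at 2.95 in PC3CR and 3.03 in PC3, below the lower quartile of genes. On the linear scale the 8 markers summed to 190 in PC3CR and 195 in PC3. Of 10 fibroblast markers 1 (10.0%) was lower by 2-fold or more, COL1A1 at -2.12, or -0.79 averaged over its probe sets. Of 6 endothelial markers none passed 2-fold, with PECAM1 at -0.59 and CLDN5 at -0.29 furthest from 0. The list of epithelial and PC3 identity markers was mixed. Of 7 measured, 3 (42.9%) were lower by 2-fold or more and 1 (14.3%) was higher, beside 6.72% and 9.84% of all genes. These were KRT19 at -3.28, EPCAM at -2.49, CD44 at -1.89 and VIM, the mesenchymal filament vimentin, at 1.21. Averaged over probe sets, KRT19 came to -2.13 and CD44, with 13 of them, to -0.99, so that 2 were then lower by 2-fold or more. KRT8 at 0.07, KRT18 at 0.67 and CDH1 at -0.67 lay within 2-fold. CDH1, an epithelial cadherin, was named after its value was seen. Whether these marker differences bear on the interleukin 1 differences was not tested.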

How the data were processed

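The authors deposited log2 values made with RMA, 1 per probe set, for 1 array of PC3CR and 1 of PC3. Tools in the submitters' processing notes are RMA, Transcriptome Analysis Console 3.1 and Affymetrix Expression Console 1.4. The array in the methods is the Human Gene 1.0 ST, but the identifiers belong to another, the Human Genome U133 Plus 2.0, and this was not resolved. RMA gives the probe intensities of all arrays 1 distribution before it summarises them by probe set, so a difference in RNA per cell would not show. The summarised values can still differ in distribution, with gene medians of 6.05 in PC3CR and 5.93 in PC3. Precision is limited by the number of arrays.

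Of 54613 probe sets, 41091 had 1 gene symbol in the platform annotation, 1801 had several and 11721 were unnamed here. No probe set with several symbols names a gene of the set. Symbols were updated through Entrez IDs to RefSeq (GRCh38.p14) for 41037. Each gene was given by its brightest probe set, and PC3CR minus PC3 was counted at a log2 difference of at least 1 or at most -1. No p-value was computed. The probe set suffix s marks probes that can match several transcripts.

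The 10 members and 14 gene lists were chosen with earlier results of these data known. Named from each list were the 4 past 2-fold with the largest differences, or the 2 largest where no gene passed, beside the members, KRT8, KRT18, EPCAM, KLK3, PTPRC the genes between family members on chromosome 2 and the 2 genes nearest to each member past 2-fold. Genes named otherwise are marked. Sequences come from RefSeq. Alternatives were the mean of probe sets, only identifiers ending in plain _at, median centring, loess centring (span 0.4), quantile normalization, floors on signal, other folds and every probe set. A value had moved when it differed by over 0.1, a count when by over 1.5 times. The steps were tested on simulated data. Software was numpy 2.4.6, statsmodels 0.14.6, pandas 2.3.3 and matplotlib 3.10.9 on Python 3.11.15.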

Additional observations from a re-analysis of the deposited data

How the results depend on the processing

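The 5 genes past 2-fold kept their direction under the 5 alternatives of probe set and scaling, except IL1A, whose difference was 0.30 when only identifiers ending in plain _at were used, since that leaves its dim probe set alone. Under the same setting the median of the cytokine and antagonist genes was -0.61. IL1R1 ran between 1.96 and 3.83, IL1RL1 between -6.18 and -3.14, IL1B between -6.31 and -6.15 and IL1RAP between 1.46 and 1.57. After loess centring the median of the receptor and adaptor genes was 0.21. IL1R2, close to 0, changed sign under the 3 scalings, to at most 0.07. At 3-fold 1 of the 10 genes was higher, and by probe set 6 were lower. Over all genes 3550 were higher and 2676 lower at 1.5-fold, 756 higher and 613 lower at 3-fold, and 3672 higher and 2422 lower by probe set. No paired analysis was possible because each cell line has 1 array. No replicate could be left out. Values below the lower quartile of genes limit IL1A, IL1RL1 (in PC3CR), IL1R1 (in PC3), IL1R2, IL33 and the dimmer probe sets of IL1A, IL1R1 and IL1RN.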

Other observations

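Toll-like receptors share MYD88 with the interleukin 1 receptors. Of 10 measured, 3 (30.0%) were higher in PC3CR by 2-fold or more, none was lower by 2-fold or more, and the median difference was -0.12. Over all genes 9.84% were higher and 6.72% lower by that much. TLR1 had a log2 value of 3.93 in PC3CR and 2.39 in PC3, TLR5 5.60 in PC3CR and 4.38 in PC3, and TLR6 5.25 in PC3CR and 4.06 in PC3, differences of 1.54, 1.22 and 1.18. None of the 10 reached the gene median of either array, so these are differences between low values. Of 5 secretory prostate genes measured, none passed 2-fold, with TMPRSS2 at -0.45 and ACP3 at -0.22 furthest from 0 on the lower side.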
